A study of Mus musculus with 3 samples.

Results

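The endoplasmic reticulum (ER) folding and quality-control genes described here are 31 of the 49492 genes in the files. They were chosen by name for what their proteins do, by a rule that reads no measured value, but with earlier results of these data known. They comprise 9 chaperones of the Hsp70 and Hsp90 type with their partners, 2 lectin chaperones, 4 disulfide isomerases, 7 genes of ER-associated degradation, 3 sensors or transcription factors of the unfolded protein response, and 6 genes of protein entry into and exit from the ER. All 31 were annotated as protein coding, lay on 15 chromosomes, and reached 1 CPM (counts scaled to library size) in at least 1 library.

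The RNA came from whole liver of CD-1 mice, which are outbred. Mice of the first group were dosed orally with nanoparticles of zinc oxide (ZnO), 25 mg/kg each day, for 8 weeks, and those of the second received that dose for 12 weeks. The particles were suspended and sonicated for 30 min before dosing, and the control group was given PBS in an equal volume. Each group is 1 library, and the labels used here give neither sex, age, the number of animals per library, the hour of collection nor the time at which the control was taken. No difference below therefore has a replicate check, no p-value is given, and a dosing time cannot be told apart from the animal or animals behind its library.

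Library depth was 14258770 counts at 8 weeks, 13263211 counts at 12 weeks and 13614979 counts in the control, so that 3 counts stood for 0.209, 0.227 and 0.221 CPM. Of 10 hepatocyte markers, all were kept. None differed 2-fold in any comparison, where 1.23% to 4.15% of all kept genes did in each direction. They summed to 4.85%, 4.70% and 3.70% of the counts at 8 weeks, at 12 weeks and in the control. Macrophage (Kupffer cell) markers summed to 6260, 4455 and 1453 counts. Of their 15 kept markers, 15 were at least 2-fold above the control at 8 weeks (4.15% of all kept genes) and 14 at 12 weeks (3.11%). Skeletal muscle markers summed to 2743 counts at 8 weeks, or 0.019% of that library, against 16 at 12 weeks and 26 in the control. The part of these other cells in the results below was not tested. In whole liver, fewer cells of a type and less RNA per cell cannot be told apart.

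Secreted and membrane proteins enter the ER unfolded, and chaperones, glycan-binding lectins and disulfide isomerases fold them there. Proteins that fail are drawn back into the cytosol and destroyed, a process called ER-associated degradation. When unfolded proteins build up, sensors that include IRE1, ATF6 and PERK start the unfolded protein response. IRE1 splices the mRNA of the transcription factor XBP1, and ATF6 is cut to release another. Both factors raise transcription of chaperone and degradation genes through short promoter elements. Hepatocytes carry a large secretory load, since they make most plasma proteins.

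The best known of these elements is the ER stress response element (ERSE), in which CCAAT and CCACG are separated by 9 bases. Promoter windows from RefSeq (GRCm38.p6), from 250 bases before to 50 after the annotated start, were at hand for 25 of the 31 genes in 26 windows, Derl2 having 2 of them. Atf6, Derl1, Hyou1, Manf, Sec61a1 and Ssr2 had no entry. On either strand, 9 of the 26 windows (34.6%) held an ERSE, against 39 of 32851 windows of the same length (0.119%). ERSE was defined on promoters of ER chaperone genes, Hspa5 among them, so the high share is no independent finding. The ERSE copies are shown because the genes that carry them lie at both ends of the results. Each is given on the strand on which it reads, with the element in capitals and 5 bases on either side. For Calr, Creld2, Derl3 and the second Hsp90b1 copy, that is the strand opposite to the gene.
Hspa5, chr2:34772020-34772048: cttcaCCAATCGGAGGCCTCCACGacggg
Hsp90b1, chr10:86705633-86705661: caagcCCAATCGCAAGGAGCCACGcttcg
Hsp90b1, second copy, chr10:86705528-86705556: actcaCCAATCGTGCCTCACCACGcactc
Dnajc3, chr14:118937822-118937850: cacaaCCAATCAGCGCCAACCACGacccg
Creld2, chr15:88819515-88819543: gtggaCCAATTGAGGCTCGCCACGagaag
Calr, chr8:84847070-84847098: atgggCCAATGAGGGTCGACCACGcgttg
Canx, chr11:50325795-50325823: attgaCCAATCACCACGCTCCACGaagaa
Pdia6, chr12:17266486-17266514: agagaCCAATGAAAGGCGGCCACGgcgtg
Syvn1, chr19:6046527-6046555: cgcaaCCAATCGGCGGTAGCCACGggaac
Derl3, chr10:75893237-75893265: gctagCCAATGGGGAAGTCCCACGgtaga

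A related element, ERSE-II, with ATTGG and CCACG separated by 1 base, stood in 2 of the 26 windows (7.69%) and in 12 of all 32851 (0.0365%). The windows that held it were those of Herpud1 and Dnajb11. The 26 windows belong to genes chosen by name for ER folding and quality control. As for ERSE, the ERSE-II share is therefore no independent finding, and it rests on 2 windows. The element TGACGTGG, called the unfolded protein response element (UPRE), stood in 1 window (3.85%), that of Sec24d, and in 222 of all windows (0.676%). CCACG by itself, which is also part of ERSE and ERSE-II, was found in 22 of the 26 windows (84.6%) and in 32.8% of all windows. A match is a string of letters in a window, and a window without one says only that these letters are not in it. The Herpud1 copy, which lies closer to the start than most ERSE copies, and the Sec24d copy read on the gene's own strand.
Herpud1 (ERSE-II), chr8:94386372-94386392: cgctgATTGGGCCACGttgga
Sec24d (UPRE), chr3:123267465-123267482: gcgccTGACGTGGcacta

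Creld2, Derl3 and Syvn1, each with an ERSE, were at least 2-fold below the control after 8 weeks, and the 250 bases before the start of each are given on the gene strand, again with the element in capitals. In Derl3 and Creld2 the element reads on the other strand, so the capitals begin with CGTGG and end with ATTGG.
Derl3, chr10:75893148-75893397, + strand: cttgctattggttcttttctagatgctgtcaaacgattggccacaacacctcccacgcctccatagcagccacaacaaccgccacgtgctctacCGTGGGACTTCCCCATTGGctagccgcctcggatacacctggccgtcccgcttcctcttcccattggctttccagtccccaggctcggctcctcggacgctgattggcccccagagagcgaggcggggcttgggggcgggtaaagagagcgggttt
Creld2, chr15:88819396-88819645, + strand: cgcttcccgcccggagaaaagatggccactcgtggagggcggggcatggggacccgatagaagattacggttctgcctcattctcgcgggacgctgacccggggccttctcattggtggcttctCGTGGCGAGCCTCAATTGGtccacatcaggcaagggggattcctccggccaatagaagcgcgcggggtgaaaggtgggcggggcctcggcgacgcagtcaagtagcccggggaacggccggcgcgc
Syvn1, chr19:6046326-6046575, + strand: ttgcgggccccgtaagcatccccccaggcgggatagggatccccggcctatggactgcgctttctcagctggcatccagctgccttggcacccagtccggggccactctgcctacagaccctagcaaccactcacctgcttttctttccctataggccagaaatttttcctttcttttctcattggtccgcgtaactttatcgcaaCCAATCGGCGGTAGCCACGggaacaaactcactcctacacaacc

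**Figure D1:**
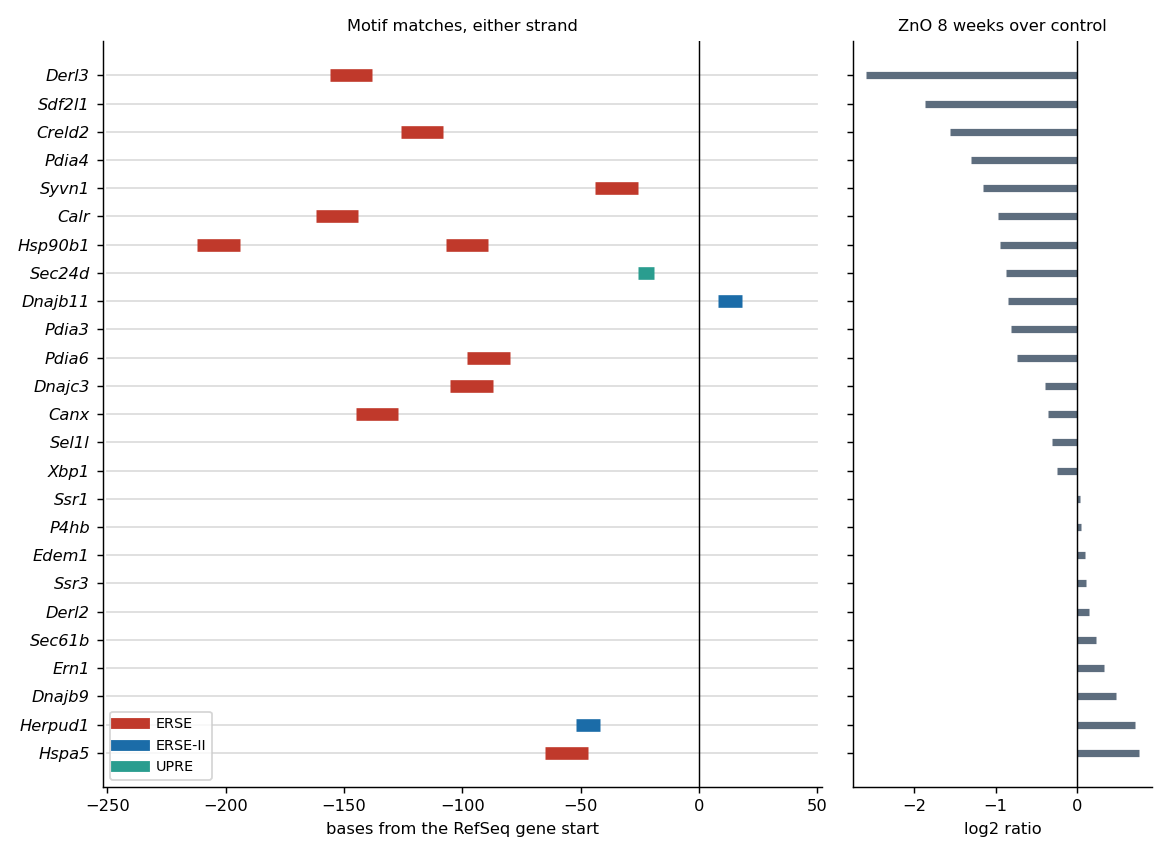
Left, position of each ERSE (red), ERSE-II (blue) and UPRE (green) match on either strand in the promoter windows of the 25 genes that have one, in bases from the RefSeq start; right, log2 ratio of 8 weeks over control as a bar for each gene, with genes ordered from the lowest ratio at the top. The ERSE copies lie between 26 and 212 bases before the start, and among the 12 genes with a match Hspa5 and Herpud1, at the bottom, have a ratio above 0.

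After 8 weeks of ZnO nanoparticles most of these genes were below the control, and the most abundant Hsp70 chaperone was above it. A gene is called higher or lower here at a 2-fold ratio, a log2 ratio of 1 or more in size, taken on CPM after adding 1 CPM; the threshold is one of size, with no test behind it. Lower at 8 weeks were 6 of the 31 genes (19.4%), where 2.10% of all 14585 kept genes were lower, and 0 of 31 were higher, where 4.15% of all were. The 6 were Derl3, Sdf2l1, Creld2, Pdia4, Hyou1 and Syvn1, and for each the 95% exact interval of the count ratio lay wholly past 2-fold, as it did for 1.53% of all genes. These intervals cover counting error only, and since the libraries carry no molecular identifiers, copies made by amplification count as separate reads. The log2 ratio was below 0 for 20 of the 31 genes and 51.6% of all genes, with a median of -0.32 for the 31 and -0.02 for all. The interval lay below 0 for 18 of the 31 (24.2% of all genes) and above 0 for 8 (23.6%). At 1.5-fold, 13 of the 31 were lower (7.97% of all genes) and 2, Hspa5 and Herpud1, were higher (10.6%).

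After 12 weeks the same comparison with the control gave 0 of 31 genes higher and 0 lower, where 3.11% and 1.34% of all genes were, and a median of -0.05 against -0.01 for all genes. The ratio was below 0 for 17 of the 31 (51.0% of all genes), and the interval lay below 0 for 14 (22.4%) and above 0 for 11 (21.0%). At 1.5-fold, 4 were higher (9.28% of all genes), namely Dnajb9, Hspa5, Herpud1 and Xbp1, and 0 were lower (6.22%). Between the treated libraries, 12 weeks over 8 weeks, 4 of 31 genes (12.9%) were higher and 0 lower, where 1.28% and 1.23% of all genes were. The 4 were Derl3, Sdf2l1, Creld2 and Hyou1, and the median over the 31 was 0.41 against -0.00 for all genes. For the first 3 of these the interval lay wholly past 2-fold (0.864% of all genes). The ratio was below 0 for 5 of the 31 (50.1% of all genes), and the interval lay above 0 for 24 (19.0%) and below 0 for 1, Derl2 (19.2%). At 1.5-fold, 11 were higher (5.41% of all genes) and 0 lower (4.73%). Together the 31 genes took 0.894% of the counts at 8 weeks, 1.11% at 12 weeks and 1.13% in the control. The 2 comparisons with the control share that library, and every pair of comparisons here shares 1 of the 3 libraries.

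Hspa5 encodes BiP, the main Hsp70 chaperone of the ER, which holds unfolded chains and restrains the stress sensors. It lies on chr2:34771970-34777547 (mm10, + strand). Hspa5 had 1779 CPM at 8 weeks, 1824 CPM at 12 weeks and 1055 CPM in the control, from 25483, 24158 and 14312 counts. Both treated libraries were above the control and lay close together. The log2 ratio to the control was 0.75 at 8 weeks (95% interval 0.72 to 0.78) and 0.79 at 12 weeks (0.76 to 0.82), and 12 weeks over 8 weeks was 0.04 (0.01 to 0.06). Neither ratio to the control reached 2-fold.

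Hsp90b1 encodes the Hsp90 chaperone of the ER, often called endoplasmin, which takes over selected clients such as integrins and Toll-like receptors, and lies on chr10:86690209-86705509 (mm10, - strand). Hsp90b1 had 1202 CPM at 8 weeks, 1640 CPM at 12 weeks and 2327 CPM in the control. The treated libraries were both below the control, with 8 weeks the lower. The log2 ratio was -0.95 at 8 weeks (-0.98 to -0.93), just inside 2-fold, and -0.50 at 12 weeks (-0.53 to -0.48). Hsp90b1 shares 415 exon bases with 1810014B01Rik on the other strand, which held 7571, 9643 and 14057 counts beside 17225, 21726 and 31578 for Hsp90b1 at 8 weeks, at 12 weeks and in the control. The ratio of its counts to those of Hsp90b1 was 44.0%, 44.4% and 44.5%, and the use of strand in counting is not given in the sources used here. Reads in the shared bases cannot be assigned to one gene. It also shares bases with Gm15344 and Gm25745 on its own strand.

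Hspa5 and Hsp90b1 thus stood on opposite sides of the control. Per length of transcript, Hsp90b1 over Hspa5 was 0.709 at 8 weeks (95% interval 0.695 to 0.723), 0.943 at 12 weeks (0.926 to 0.961) and 2.31 in the control (2.27 to 2.36). Hsp90b1 was the more abundant of the pair only in the control. Hyou1, the large Hsp70-like protein that exchanges the nucleotide of BiP, had 99.7 CPM at 8 weeks, 204 CPM at 12 weeks and 231 CPM in the control. At 8 weeks it was below the control by a log2 ratio of -1.20 (-1.30 to -1.12), while the 12-week value lay near the control at -0.17. The 12-week over 8-week ratio was 1.03 (0.94 to 1.13), an interval that reaches below 2-fold. Per length, Hyou1 over Hspa5 was 0.0328, 0.0655 and 0.128 at 8 weeks, at 12 weeks and in the control.

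**Figure D2:**
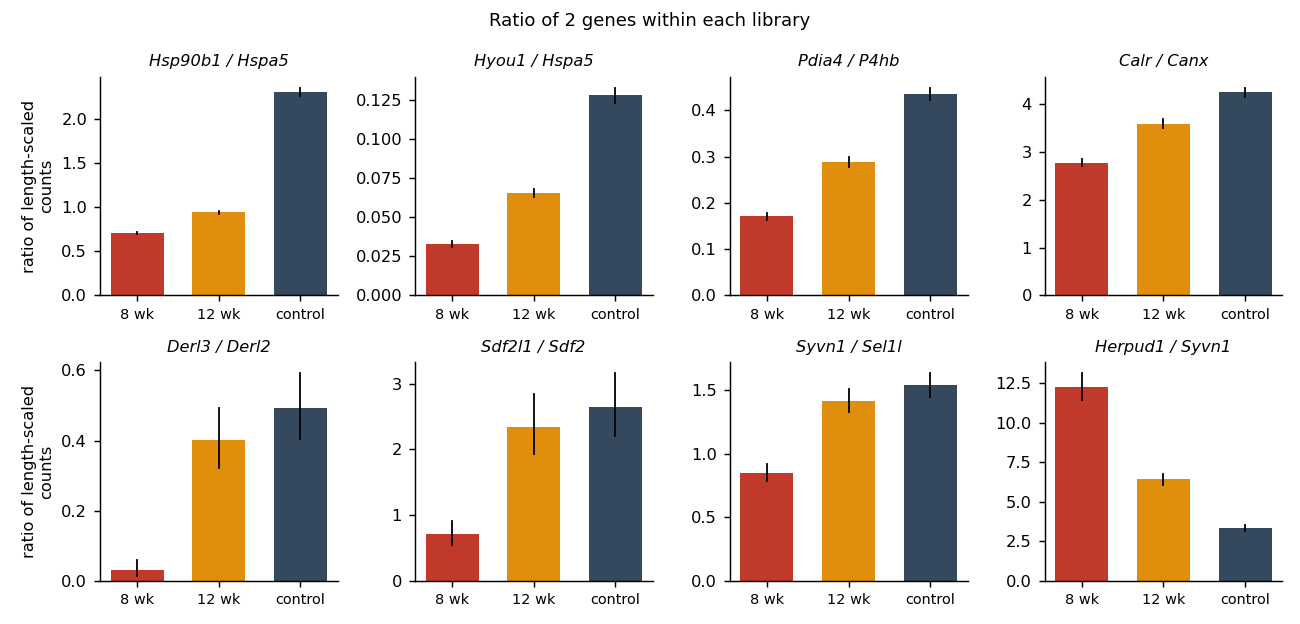
Ratio of length-scaled counts of paired genes in the 8-week (red), 12-week (orange) and control (dark) libraries, 1 bar per library and 1 panel per pair, with exact 95% intervals for counting error as lines. For Hsp90b1 over Hspa5 the control bar stands at 2.31 and both treated bars stay below 1, for Derl3 over Derl2 the 8-week bar is lowest at 0.0319, and for Herpud1 over Syvn1 the 8-week bar is highest at 12.3.

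The J-domain partners of BiP, which bring it clients and trigger its ATPase, did not move together. Dnajb9, which also helps shut off IRE1, had 163 CPM at 8 weeks, 217 CPM at 12 weeks and 117 CPM in the control, both treated libraries being above it (log2 ratios 0.47 and 0.88). Dnajb11, a soluble partner that binds unfolded chains, had 104, 171 and 188 CPM in the same order, with ratios of -0.85 and -0.13. Dnajc3, which binds unfolded proteins and is known as an inhibitor of kinases of the PERK and PKR type, had 263, 369 and 347 CPM. The 8-week Dnajc3 value was the lowest of the 3, with a ratio of -0.40 (-0.46 to -0.34), and the 12-week value stood slightly above the control at 0.09 (0.03 to 0.15). Per length, Dnajb9 over Dnajb11 was 2.73, 2.20 and 1.08 at 8 weeks, at 12 weeks and in the control.

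Sdf2l1, Creld2 and Manf encode small soluble ER proteins that are induced in ER stress. Sdf2l1, which works with Dnajb11 and BiP against clumping of unfolded chains, lies on chr16:17130138-17132383 and had 6.56 CPM at 8 weeks, 21.6 CPM at 12 weeks and 26.6 CPM in the control. These rest on 94, 286 and 361 counts, and the 8-week library stood far below the other two. Its ratios were -1.87 at 8 weeks (-2.36 to -1.69), -0.29 at 12 weeks (-0.53 to -0.07) and 1.58 for 12 weeks over 8 weeks (1.38 to 2.07). The paralog Sdf2, which belongs to another list, had 182, 167 and 187 counts, so that Sdf2l1 over Sdf2 per length was 0.706, 2.34 and 2.64.

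Creld2, a secreted protein linked to disulfide handling, lies on chr15:88819646-88826681 and had 25.2 CPM at 8 weeks, 61.6 CPM at 12 weeks and 76.5 CPM in the control, from 361, 816 and 1038 counts. As with Sdf2l1, the 12-week library lay near the control and the 8-week library well below both. The ratios were -1.56 (-1.78 to -1.43), -0.31 (-0.45 to -0.18) and, for 12 weeks over 8 weeks, 1.26 (1.11 to 1.47). Creld2 over its paralog Creld1 was 1.69, 3.43 and 2.95 per length, lowest at 8 weeks. Manf, a secreted factor that binds BiP, had 43.1, 72.7 and 73.7 CPM, with ratios of -0.76 (-0.92 to -0.63) at 8 weeks and -0.02 (-0.15 to 0.11) at 12 weeks, the second not separated from 0 by counting. Manf shares exon bases with Vprbp and 4930524O07Rik on the other strand and with Rbm15b on its own, and Vprbp alone had 1178, 1158 and 1256 counts beside 618, 963 and 1000 for Manf.

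Over the 9 chaperones and partners, 7 had a ratio below 0 at 8 weeks (51.6% of all genes) and 6 at 12 weeks (51.0% of all genes). All 9 were above 0 for 12 weeks over 8 weeks, where 50.1% of all genes were below 0. Their medians were -0.85, -0.13 and 0.72, and the exceptions at 8 weeks were Hspa5 and Dnajb9.

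**Figure D3:**
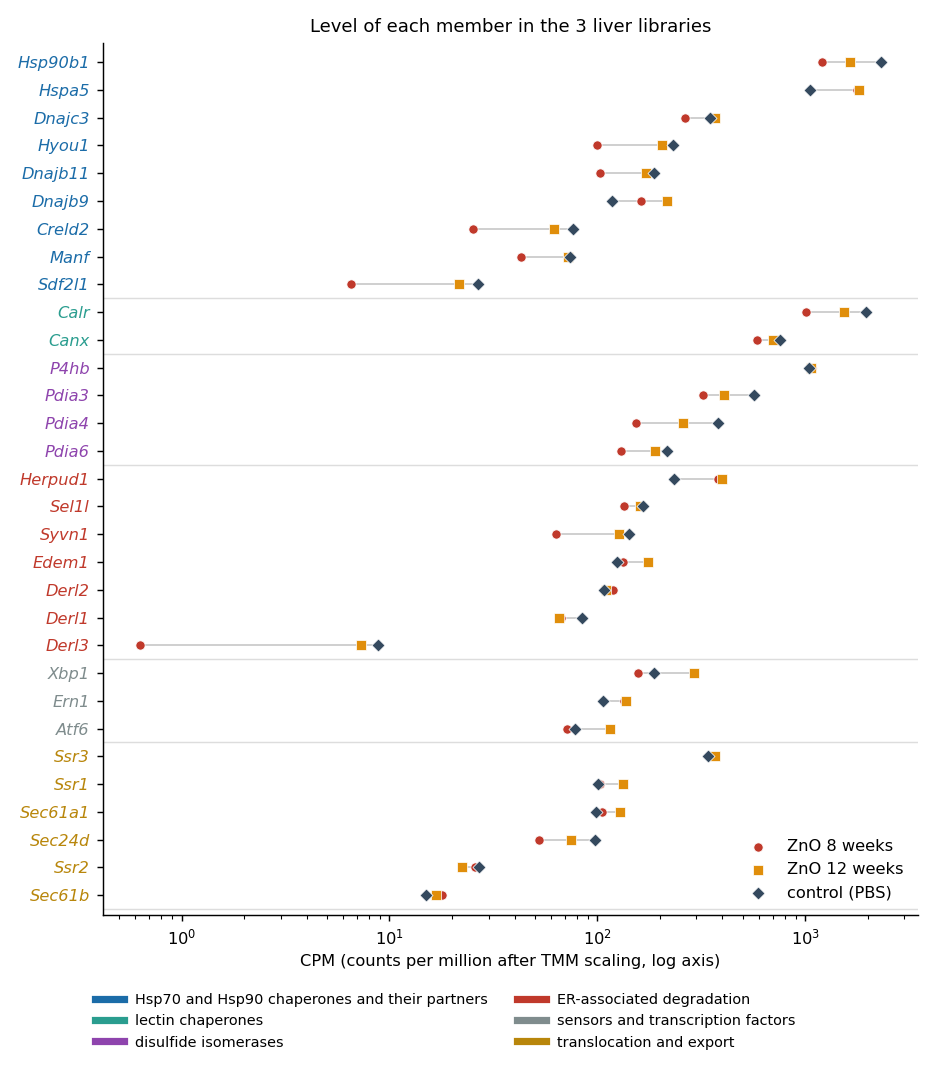
Level of each of the 31 genes in CPM on a log axis, by role, in the 8-week (red circle), 12-week (orange square) and control (dark diamond) libraries, 1 point per library. The red circle is leftmost for Derl3 (0.628 CPM), Sdf2l1 (6.56 CPM) and Creld2 (25.2 CPM) and for Hspa5, Herpud1 and Dnajb9 both treated points lie right of the dark diamond.

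Calreticulin (Calr) and calnexin (Canx) hold glycoproteins by their trimmed sugars while they fold. Calr had 1005 CPM at 8 weeks, 1541 CPM at 12 weeks and 1966 CPM in the control, and Canx had 590, 700 and 754 CPM in that order. Both were lowest at 8 weeks and highest in the control. The Calr ratios were -0.97, just inside 2-fold, and -0.35, and those of Canx were -0.35 and -0.11, with all 4 intervals below 0. Per length, Calr over Canx was 2.78, 3.59 and 4.25 at 8 weeks, at 12 weeks and in the control, so the soluble lectin differed more than the membrane-bound one.

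Disulfide isomerases make and reshuffle the bonds between cysteines. P4hb, the classical protein disulfide isomerase and a subunit of both collagen prolyl hydroxylase and the microsomal triglyceride transfer protein, had 1074 CPM at 8 weeks, 1063 CPM at 12 weeks and 1045 CPM in the control. Its 3 values were within a few percent of each other, with ratios of 0.04 (0.01 to 0.07) and 0.02 (-0.01 to 0.06). Pdia4 lies on chr6:47796141-47813430 and had 154 CPM at 8 weeks, 257 CPM at 12 weeks and 381 CPM in the control. It was the one isomerase lower by 2-fold at 8 weeks, at -1.30 (-1.38 to -1.23), and its ratio at 12 weeks was -0.57 (-0.63 to -0.51). Per length, Pdia4 over P4hb was 0.171, 0.289 and 0.435.

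Pdia3, the isomerase that works with calreticulin and calnexin, had 323 CPM at 8 weeks, 406 CPM at 12 weeks and 568 CPM in the control, with ratios of -0.81 and -0.48. Pdia6, an isomerase that associates with BiP and also damps IRE1, had 130, 189 and 218 CPM, with ratios of -0.74 and -0.20. In the 3 isomerases other than P4hb the order was the same, with 8 weeks lowest and the control highest.

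Among the genes of ER-associated degradation, Herpud1 was above the control at both times while Syvn1 and Derl3 were below it at 8 weeks. Herpud1, a membrane protein that organises the degradation complex, had 381 CPM at 8 weeks, 398 CPM at 12 weeks and 233 CPM in the control. The treated libraries were alike, with ratios of 0.70 (0.64 to 0.77) and 0.77 (0.71 to 0.84), short of 2-fold. Syvn1, the ubiquitin ligase Hrd1 at the centre of that complex, lies on chr19:6046576-6053712 and had 63.5, 127 and 143 CPM. The 8-week library alone was low, with ratios of -1.16 (-1.28 to -1.05) at 8 weeks, -0.17 (-0.26 to -0.07) at 12 weeks and 0.99 (0.88 to 1.12) for 12 weeks over 8 weeks, just inside 2-fold. Herpud1 over Syvn1 per length was 12.3, 6.42 and 3.34 at 8 weeks, at 12 weeks and in the control. Syvn1 shares 83 exon bases with Mrpl49 on the other strand, which had 300, 276 and 260 counts beside 910, 1682 and 1937.

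Sel1l, the adaptor that holds Hrd1 in place, had 134 CPM at 8 weeks, 161 CPM at 12 weeks and 166 CPM in the control, a smaller difference than that of Syvn1, with ratios of -0.31 and -0.05. Syvn1 over Sel1l per length was 0.849, 1.42 and 1.54. Edem1, which trims mannose from glycoproteins marked for degradation, had 133, 175 and 124 CPM, with ratios of 0.10 and 0.49.

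Derlins form part of the channel through which proteins leave the ER. Derl3, the least abundant of the 31 genes per length in every library, lies on chr10:75893398-75895941 and had 0.628 CPM at 8 weeks, 7.32 CPM at 12 weeks and 8.77 CPM in the control, from 9, 97 and 119 counts. The 8-week library held few reads of it, and the other libraries held similar numbers. Its ratio was -2.59 at 8 weeks and 2.35 for 12 weeks over 8 weeks. The intervals of the count ratio, taken without the added 1 CPM, ran from -4.97 to -2.83 and from 2.56 to 4.72, so the printed ratios understate the difference. At 12 weeks the ratio was -0.23 (-0.66 to 0.14). Among the 14585 kept genes its ratio at 8 weeks was number 17 from the lowest.

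Its paralogs Derl1 and Derl2 lay closer to the control at 8 weeks. Derl1 had 67.3 CPM at 8 weeks, 65.6 CPM at 12 weeks and 84.4 CPM in the control, with ratios of -0.32 and -0.36, and Derl2 had 119, 110 and 107 CPM, with ratios of 0.14 and 0.03. Per length, Derl3 over Derl2 was 0.0319 at 8 weeks (0.0146 to 0.0607), 0.401 at 12 weeks (0.323 to 0.493) and 0.492 in the control (0.404 to 0.593).

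Derl3 is also known from secretory cells such as plasma cells and pancreatic acinar cells. Of 14 B and plasma cell markers 5 were kept, none of them called at 8 weeks (4.15% of all genes higher and 2.10% lower). The list summed to 1448, 1406 and 1504 counts, most of it Sdc1 (1306, 1302 and 1342), which hepatocytes express too. Mzb1 had 0, 1 and 1 counts and Tnfrsf17 had 0 in each library. Of 14 pancreatic acinar markers 4 were kept, 2 of them lower at 8 weeks (2.10% of all genes). At 12 weeks 2 were lower (1.34% of all genes) and the other 2 had a ratio above 0. The lower 2 were Ctrb1 and Pnlip at both times, and these reached 1 CPM only in the control. The filter thus favoured a lower call for them, and the calls are no result about such cells. The acinar list summed to 60, 84 and 150 counts. Ctrb1 had 1, 2 and 21 counts, Pnlip had 1, 0 and 18, Cela1 had 40, 52 and 50 and Prss1 had 0 in each library. The part of such cells in the Derl3 result was not tested.

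**Figure D4:**
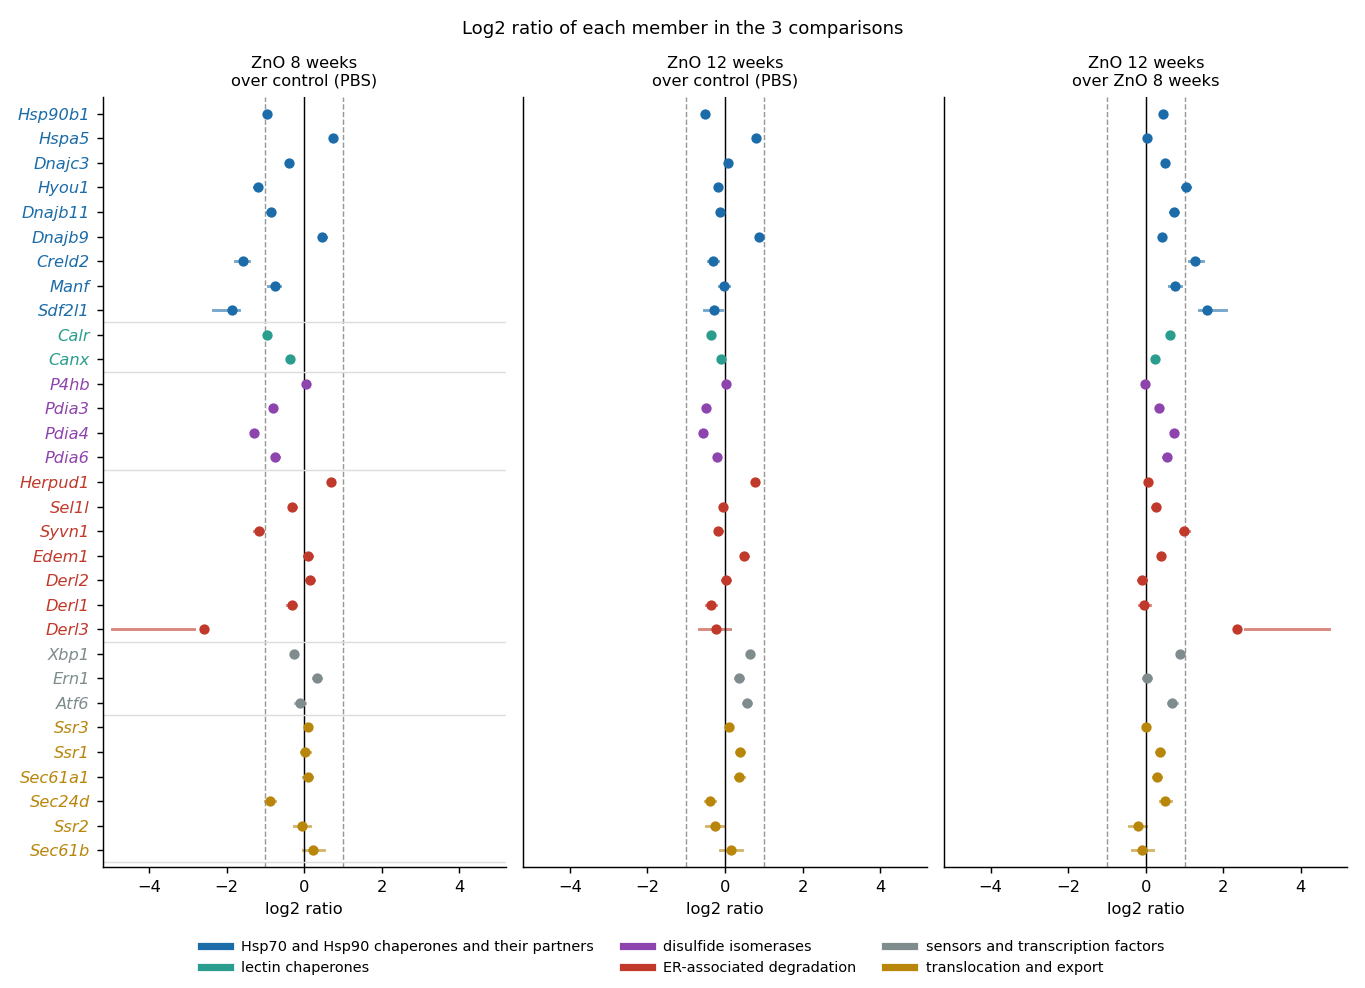
Log2 ratio of CPM + 1 for each of the 31 genes, coloured by role, for 8 weeks over control, 12 weeks over control and 12 weeks over 8 weeks, with exact 95% intervals of the count ratio as bars and dashed lines at 2-fold. The 6 genes left of the dashed line at 8 weeks all lie inside both lines at 12 weeks, and the Derl3 point lies off its bar because 1 CPM was added to the point and not to the interval.

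The sensors and factors that govern these genes did not share one order across the libraries. Xbp1, the transcription factor whose mRNA IRE1 splices, had 158 CPM at 8 weeks, 293 CPM at 12 weeks and 188 CPM in the control. The 12-week library was the highest and the 8-week library the lowest, with ratios of -0.25 (-0.34 to -0.17) and 0.64 (0.57 to 0.71) and, for 12 weeks over 8 weeks, 0.89 (0.82 to 0.97). Counts per gene do not separate spliced from unspliced Xbp1. Atf6 had 71.7, 115 and 77.8 CPM, with ratios of -0.11 (-0.24 to 0.01) and 0.56 (0.45 to 0.68), and Ern1, the gene of IRE1, had 134 CPM at 8 weeks, 137 CPM at 12 weeks and 107 CPM in the control, with ratios of 0.33 and 0.36. All 3 were above the control at 12 weeks, where 51.0% of all genes were below it, though none of the 3 by 2-fold.

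Genes of entry into the ER lay close to the control at 8 weeks. Sec61a1, which forms the channel, had 105 CPM at 8 weeks, 128 CPM at 12 weeks and 99.0 CPM in the control, and Sec61b, a small channel subunit, had 17.9, 16.8 and 15.0 CPM. The subunits Ssr1, Ssr2 and Ssr3 of the translocon-associated complex had ratios of 0.03, -0.06 and 0.11 at 8 weeks and of 0.39, -0.26 and 0.11 at 12 weeks. For Sec61a1, Sec61b, Ssr1 and Ssr2 the interval at 8 weeks included 0. Sec24d, a cargo-binding part of the COPII coat that carries proteins out of the ER, had 52.6, 74.4 and 97.0 CPM and, unlike the entry genes, ratios of -0.87 (-1.01 to -0.75) and -0.38 (-0.50 to -0.26). Of genes not yet named with their partners, Derl2 shared exon bases with Mis12, Pdia3 with Catsper2, Pdia4 with Mir704, Pdia6 with Atp6v1c2, Sec61a1 with Gm44170 and Ssr2 with Gm10704.

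Set in order of level per length (TPM, CPM divided by the deposited gene length and rescaled to a fixed sum), Calr, Hsp90b1, P4hb and Hspa5 were the 4 most abundant of the 31 genes in every library, in differing order. At 8 weeks they were Hspa5 (893 TPM), P4hb (797 TPM), Calr (741 TPM) and Hsp90b1 (633 TPM). At 12 weeks they were Calr (1109 TPM), Hspa5 (894 TPM), Hsp90b1 (843 TPM) and P4hb (770 TPM). In the control they were Calr (1401 TPM), Hsp90b1 (1185 TPM), P4hb (750 TPM) and Hspa5 (512 TPM). Hspa5 thus ranked 1 at 8 weeks, 2 at 12 weeks and 4 in the control.

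The 12-week level lay between the 8-week and control levels for 18 of the 31 genes (58.1%), where it did for 40.0% of all genes. In 15 of these (48.4%) the 8-week library was the lowest, against 20.5% of all genes. It was above both for 11 genes (29.5% of all genes) and below both for 2, Derl1 and Ssr2 (30.6% of all genes). With 3 libraries, each order is the order of 3 single values.

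Of the 9 genes with an ERSE in the window, 3 were lower at 8 weeks (Creld2, Derl3 and Syvn1; 2.10% of all genes), 8 had a ratio below 0 (51.6% of all genes), and the median was -0.95. Hspa5, which also holds an ERSE, was the one above 0. At 12 weeks 7 of the 9 were below 0 (51.0% of all genes), with a median of -0.20. For 12 weeks over 8 weeks all 9 were above 0, where 50.1% of all genes were below 0, with a median of 0.54. Of the 16 genes with a window and no ERSE, 2 were lower at 8 weeks (Pdia4 and Sdf2l1), against the same 2.10% of all genes. At 8 weeks 7 were below 0 (51.6% of all genes) and 9 above, and the medians were 0.04, 0.07 and 0.35 in the same comparisons. These 16 include Herpud1, Dnajb11 and Sec24d, which hold ERSE-II or UPRE. They also include genes of entry and exit, of which none had an ERSE, so element and role cannot be told apart. The part of the element was not tested. Outside the 31 genes, 28 genes had an ERSE in this window, of which 21 were found in the count data and 10 were kept. Of those 10, 1 was lower (2.10% of all genes) and 0 higher (4.15%) at 8 weeks, and their median was -0.33. At 12 weeks 1 was lower (1.34%), 1 was higher (3.11%) and the median was -0.35. For 12 weeks over 8 weeks 5 were above 0 and 5 below, with a median of 0.09. Some of the 10 rest on low counts, such as Zfp57 with 5, 8 and 23 at 8 weeks, at 12 weeks and in the control. Zfp57 and Xlr3b reached 1 CPM only in the control, and Spats2l only at 8 weeks. The filter thus favoured the direction of their ratios, and the medians of the 10 partly reflect it. Herpud1, with ERSE-II, was above the control at 8 weeks (0.70) and Dnajb11, with ERSE-II 8 to 18 bases after its start, was below (-0.85).

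Other genes of the same steps, in 4 lists that exclude the 31, showed few differences of this size. These were 28 kept genes of ER folding, 29 of ER-associated degradation, 30 of the translocon and glycan transfer and 24 of COPII transport. Of the 111 in all, 1 was higher (4.15% of all genes) and 0 lower (2.10%) at 8 weeks. At 12 weeks 0 were called (3.11% higher and 1.34% lower of all genes), and between the treated libraries 0 (1.28% and 1.23%). The medians of the 111 genes were -0.04, 0.01 and 0.04. The one called gene was Yod1, a deubiquitinase that acts with the degradation machinery, with 970 counts at 8 weeks, 456 at 12 weeks and 393 in the control (log2 ratios 1.20 and 0.24).

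The folding list had medians of 0.03 and 0.04 against the control, and its most abundant genes, the isomerase Txndc5 and the proline isomerase Ppib, had ratios of 0.10 and -0.12 at 8 weeks. In the degradation list the medians were -0.08 and -0.10 (29 genes), and in the translocon list, led by Sec62 and Sec63 (-0.03 and -0.07 at 8 weeks), they were -0.03 and 0.05. In the COPII list 21 of 24 genes had a ratio below 0 at 8 weeks, against 20 of the 31 and 51.6% of all genes. The list's median was -0.18 at 8 weeks and -0.08 at 12 weeks. Its most abundant genes were the cargo receptors Mia3 (-0.20 at 8 weeks) and Lman1 (0.04).

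**Figure D5:**
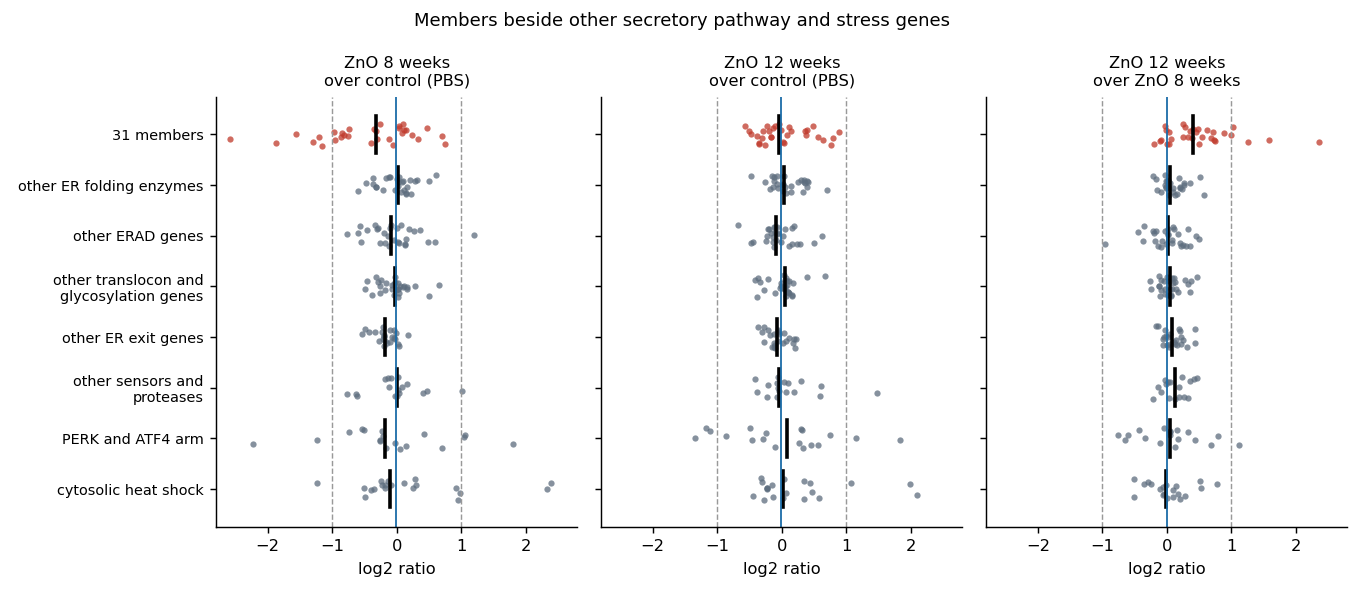
Log2 ratio of every kept gene of each list, 1 point per gene, for 8 weeks over control, 12 weeks over control and 12 weeks over 8 weeks, with the list's median as a black tick, the median of all kept genes as a blue line and 2-fold as dashed lines. The 31 genes have a median of -0.32 at 8 weeks, and the lists of other ER genes have medians between -0.18 and 0.03.

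Genes of other stress sensors and stress pathways gave mixed calls. Among 17 kept stress sensors and activating proteases, Creb3l2, a membrane-bound transcription factor of the ATF6 type, was the only gene called. It was higher at both times (4.15% and 3.11% of all genes), with 557 counts at 8 weeks, 720 at 12 weeks and 255 in the control. Its ratios were 1.01 and 1.48, and the interval at 8 weeks (0.83 to 1.27) reached below 2-fold. Of 18 kept genes of the PERK and ATF4 arm, 3 were higher (4.15% of all genes) and 2 lower (2.10%) at 8 weeks. At 12 weeks 2 were higher (3.11%) and 3 lower (1.34%). Ddit4, an inhibitor of mTOR signalling, was higher (1.80 and 1.16), as was Chac1, which degrades glutathione (1.04 and 1.83), while the secreted hormones Fgf21 (-2.23 and -1.11) and Gdf15 (-1.24 and -1.35) were lower. Chac1 and Ddit4 rest on low counts, 11 and 15 in the control. Chac1 reached 1 CPM only in the treated libraries, so the filter favoured a higher call for it.

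Of 10 transcripts known as targets of IRE1-dependent decay, 1 was higher at 8 weeks (4.15% of all genes). It was the carboxylesterase gene Ces1g (1.28, and 0.09 at 12 weeks), and the list's medians were 0.30 and 0.17. Of 20 cytosolic heat shock genes, 2 were higher (4.15% of all genes) and 1 lower (2.10%) at 8 weeks. At 12 weeks 3 were higher (3.11%). Higher at both times were Hspa1a (2.39 and 2.10) and Hspa1b (2.33 and 1.98), near-identical copies of an inducible Hsp70 whose reads cannot be divided with certainty. Their cochaperone Bag3 had 0.92 and 1.07, and the small heat shock gene Hspb1 had -1.23 and -0.45. The 20 genes had medians of -0.11 and 0.03.

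The protein load on the ER was not measured, and only mRNA counts of secreted proteins were at hand. Together, 20 genes of abundant plasma proteins took 8.72% of the counts at 8 weeks, 9.54% at 12 weeks and 7.62% in the control. None was called at 8 weeks (4.15% of all genes higher and 2.10% lower), where their median was 0.06. At 12 weeks 1 was higher (3.11% of all genes), the plasma protein gene Itih4 (0.59 at 8 weeks and 1.20 at 12 weeks), with a median of 0.24.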

How the data were processed

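Liver RNA was extracted with Trizol and sequenced from libraries made with a TruSeq RNA kit, per the labels' protocols. Per the file headers and the values, each deposited file holds unnormalized estimated counts, of which 70.2% at 8 weeks, 71.5% at 12 weeks and 70.4% in the control were whole within 0.005. The tools TopHat2 2.1.0 and Cufflinks 2.2.1.0 are listed, with no role, beside mm10 and mm9 in the submitters' processing notes. Which program counted reads, its use of strand and its handling of reads in repeated sequence are not given in the sources used here. The positions of 25 of the 31 genes equal those in GENCODE M21 (GRCm38, mm10), and 25 had a fractional count in at least 1 library.

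Counts were rounded and scaled by TMM (edgeR 4.0.16 under R 4.3.3). The 8-week, 12-week and control libraries had factors of 1.005, 0.999 and 0.997. Genes with 1 CPM or more in at least 1 library were kept, 14585 of 49492. Log2 ratios were taken on CPM + 1 CPM, which understates the difference of low genes, and called at 2-fold. With 1 library per group no test was run; exact (Clopper-Pearson) 95% intervals of count ratios cover counting error only. Levels between genes use TPM from the deposited lengths. Promoter windows were searched on both strands. Python 3.11.15 with pandas and scipy was used.

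The 31 genes, the other lists and the markers were chosen with earlier results of these data known. All 31 genes are named; from each other pathway list, up to 4 called genes by size of ratio, or else the 2 most abundant, and genes that share an exon with one of the 31. Tnfrsf17, Mzb1, Sdc1, Ctrb1, Pnlip, Cela1 and Prss1 were named from the marker lists after their values were seen. Results were recomputed with other thresholds, pseudocounts, filters and scalings (among them the size factors of DESeq2 1.42.0).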

Additional observations from a re-analysis of the deposited data

Results flagged for a closer look

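For Dnajc3 and Xbp1 the log2 ratio to the shared control had opposite signs at the 2 dosing times, with each counting interval clear of 0. Dnajc3 had -0.40 at 8 weeks and 0.09 at 12 weeks, and Xbp1 had -0.25 at 8 weeks and 0.64 at 12 weeks. With 1 library per time, the difference between the times was not tested.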

How the results depend on the processing

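At a threshold of 1.5-fold in place of 2-fold, 2 of the 31 genes were higher (10.6% of all kept genes) and 13 lower (7.97%) at 8 weeks, 4 were higher (9.28%) at 12 weeks, and 11 were higher (5.41%) for 12 weeks over 8 weeks. The median at 12 weeks was 0.056 over the 22 genes that share no exon with another gene, against -0.05 over all 31; that alternative was chosen after seeing the data, and it uses fewer genes. Other pseudocounts, filters and scalings left the numbers of the 31 genes called within 1.5 times. Calls in the other lists were less stable, since Creb3l2 and Chac1 at 8 weeks fall inside 2-fold with 5 CPM added. Hyou1 for 12 weeks over 8 weeks came to 0.999, inside 2-fold, with 5 CPM added. Derl3 moved by up to 1.29 with another pseudocount and the 31 genes by at most 0.034 with another scaling. Manf at 12 weeks (0.01 without the 50 most abundant genes) and Ssr3 for 12 weeks over 8 weeks (-0.01 under 3 other scalings) changed sign near 0. No paired analysis was possible because each group is 1 library, and leaving out a replicate was not possible for the same reason. Depth limits Derl3 most, with 9 counts at 8 weeks.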
